A study of Mus musculus with 12 samples.

Results

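The genes described here carry the names of subunits of the mitochondrial respiratory chain and of the ATP synthase, in RNA from the neonatal mouse cochlea. They were chosen by name alone: *Nduf* a, b, c, s and v genes, *Sdh* a to d, *Uqcr* genes and *Cyc1*, *Cox* genes of subunits 4 to 8 with a letter, *Atp5* genes and the mitochondrially encoded *mt-Nd*, *mt-Co*, *mt-Cytb* and *mt-Atp* genes. Of 27755 entries in the table, 101 matched these names. Of these, 6 were pseudogenes and 5 had a mean under 10 normalized counts over all libraries, which left 90 members of 18400 genes tested. The members are 78 nuclear and 12 mitochondrially encoded genes. The nuclear ones are 36 genes of complex I, 4 of complex II, 9 of complex III, 12 of complex IV and 17 of complex V, while the mitochondrial genome contributes 6 to complex I, 1 to complex III, 3 to complex IV and 2 to complex V. Just outside the limit on the mean was *Cox7b2* with 9.36 normalized counts, followed by *Cox8b* with 4.55, *mt-Nd4l* with 4.00, *Cox6a2* with 0.909 and *Cox8c* with 0.636. The gene next to *mt-Nd4l*, *mt-Nd4*, had a mean of 27840, and whether the assignment of reads adds to this gap was not tested. All 90 members passed this limit in the mean over all groups, and the rule used no difference between groups. Names alone decided, so *Ndufa4*, whose protein is now placed with complex IV, is counted with complex I, and *Cox4i1* is not a member. Likewise *Atp5sl*, listed as *Dmac2* in GENCODE M21, is counted with complex V, and *Cox7a2l*, a factor that joins complexes III and IV, with complex IV.

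Each library held RNA from both cochleae of 1 pup of a mixed C57BL/6 and CD1 background. Treated pups carried *Sox2-CreER* and 1 *β-catenin-flox(Exon3)* allele, whose recombination removes exon 3 and stabilizes β-catenin. Untreated pups carried the floxed allele without Cre, and their mothers also received tamoxifen, which reached all pups through the milk. In the P1 groups tamoxifen was given on day 1 and the tissue was taken on day 4, and in the P4 groups on day 4 and day 7, always 72 h apart. The groups are named by the day of tamoxifen: 3 libraries each of P1 treated, P1 untreated and P4 untreated pups and 2 of P4 treated pups, whose replicate 2 was not analysed here. Cre acts only in SOX2-positive cells, the Cre allele itself lowers *Sox2*, and the epithelium was freed of much of the mesenchyme with Cell Recovery Solution, so that the RNA is a mixture of recombined and other cells.

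The respiratory chain passes electrons from NADH through complex I, or from succinate through complex II, to complex III, cytochrome c and complex IV, and the proton gradient this builds drives the ATP synthase, complex V. Complexes I, III, IV and V hold subunits from both genomes, made on cytosolic and on mitochondrial ribosomes, whereas complex II is encoded by the nucleus alone. The mitochondrial messages are cut from long transcripts of a circular genome, so that neighbouring genes begin as 1 molecule. Sensory hair cells and the ion-pumping stria vascularis of the cochlea are known for a high demand for ATP.

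The stretches at which mitochondrial messages share bases are shown because they bear on which gene a read can be given to. All are on the plus strand of GRCm38 (mm10), and capitals mark the bases that both genes of a pair use. The last 60 bases of *mt-Atp8* (chrM:7910-7969) and the first 60 of *mt-Atp6* (chrM:7927-7986) share 43 bases, and those of *mt-Nd4l* (chrM:10114-10173) and *mt-Nd4* (chrM:10167-10226) share 7.
mt-Atp8: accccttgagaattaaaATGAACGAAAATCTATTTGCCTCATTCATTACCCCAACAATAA
mt-Atp6: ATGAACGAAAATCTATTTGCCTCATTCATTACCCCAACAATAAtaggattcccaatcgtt
mt-Nd4l: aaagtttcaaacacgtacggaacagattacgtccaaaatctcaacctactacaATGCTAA
mt-Nd4: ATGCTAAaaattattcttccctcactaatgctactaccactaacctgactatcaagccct
*mt-Atp8* is 204 bp long, and *mt-Nd5* and *mt-Nd6* overlap by 14 bp on opposite strands. The library kit does not mark strand, so reads of *mt-Nd6* and of RNA antisense to it cannot be told apart, and nuclear copies of mitochondrial genes and pseudogenes of the nuclear members can share reads with them.

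Normalized counts added up to 41.2 to 44.2 M in each library. *Xist*, which is expressed from the inactive X chromosome of females, was 2794 to 4180 in P1 untreated replicates 2 and 3 and both P4 treated libraries, and 13 to 39 in the other 7. At P4 the treated and untreated libraries therefore differed in sex as well as in treatment, and the effects of these cannot be told apart there. *Ctnnb1*, the gene targeted, was 24107 to 25048 in treated and 19820 to 25308 in untreated libraries at P1, and 28951 to 31167 and 25724 to 30429 at P4. Counts per gene cannot show the loss of 1 exon. *Sox2* was 4930 to 6006 in P1 treated against 8042 to 10170 in P1 untreated libraries, and 7577 to 7993 against 10101 to 10485 at P4. P1 treated replicate 2 and P4 untreated replicate 2 stood apart from the rest in the nuclear members, since the first had the lowest of the 11 values for 50 of the 78 and the second the highest for 53. In P1 treated replicate 2 the mean log2 of 10 markers of the stria vascularis was 9.55, against 6.43 to 8.03 in the other libraries, and their part in the low nuclear values was not tested.

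The mitochondrial and the nuclear members differed in how they stood at the 2 ages. As the mean of log2(normalized count + 1) over the 12 mitochondrial members minus that over the 78 nuclear ones, the difference was 2.91, 3.04 and 2.86 in P1 treated and 3.01, 2.90 and 2.92 in P1 untreated libraries. It was 2.71 and 2.80 in P4 treated and 2.66, 2.59 and 2.49 in P4 untreated libraries. Every P1 library was above every P4 library, and both P4 treated libraries were above the 3 P4 untreated ones. The group means were 2.94 ± 0.0947 (SD, n = 3) and 2.94 ± 0.0592 (SD, n = 3) at P1, and 2.76 ± 0.0688 (SD, n = 2) and 2.58 ± 0.0838 (SD, n = 3) at P4, treated first. No test was made of a score over the members. Among the libraries with low *Xist* it was 2.86 to 3.04 at P1 and 2.49 to 2.66 at P4, and among those with high *Xist* 2.90 to 2.92 and 2.71 to 2.80. The P4 libraries were all untreated in the first set and all treated in the second. With high *Xist* both P1 libraries were untreated, so age and treatment cannot be told apart there.

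**Figure D1:**
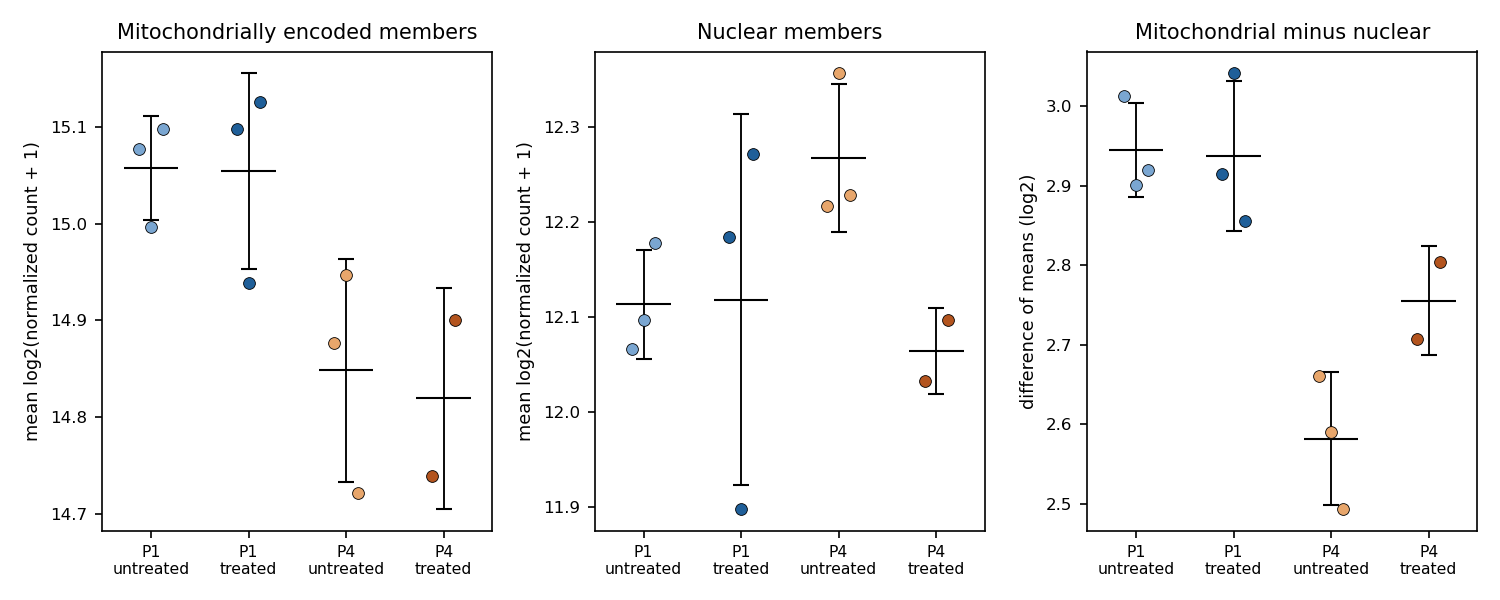
Mean log2(normalized count + 1) over the 12 mitochondrially encoded members (left) and the 78 nuclear members (middle), and the first minus the second (right), by group. Each point is a library, the bar the group mean and the whisker 1 SD; in the right panel the 6 P1 libraries lie at 2.86 to 3.04 and the 5 P4 libraries at 2.49 to 2.80.

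As a share of all normalized counts, the 12 mitochondrial members took 1.48 to 1.66% at P1 and 1.20 to 1.44% at P4, with no overlap. The 78 nuclear members took 1.15% ± 0.104 (SD, n = 3) in treated and 1.16% ± 0.0419 (SD, n = 3) in untreated libraries at P1, and 1.12% ± 0.0206 (SD, n = 2) and 1.30% ± 0.0817 (SD, n = 3) at P4. The mitochondrial sum was thus 1.29 to 1.44 times the nuclear sum at P1 and 0.953 to 1.19 times at P4. In RNA from a mixture of cells, fewer cells of a type and less RNA per cell cannot be told apart.

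The first question was how the chain's genes stood at the earlier against the later age in untreated cochleae, which gives the background for the treatment. Genes are referred to as called where the adjusted p from limma was under 0.05 and the log2 fold change was larger than 0.32 in size. Of the 12 mitochondrial members, 3 were called higher at P1 (*mt-Atp8*, *mt-Atp6* and *mt-Co1*) and 0 lower, where 10.5% of all genes tested were called higher and 9.38% lower. Their median log2 fold change was 0.22, against 0.02 for all genes, and 11 of the 12 were above 0. Of the 18400 genes tested, 4040 were higher and 3553 lower at P1 without overlap of the untreated groups. Lack of overlap alone therefore does not set a gene apart in this comparison.

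*mt-Atp8* and *mt-Atp6* encode the subunits of the ATP synthase that the mitochondrion keeps, and both were called. *mt-Atp8* had 13488, 13197 and 13651 normalized counts in the P1 untreated libraries and 10038, 9883 and 8114 in the P4 untreated ones. The groups did not overlap, and the log2 fold change was 0.53 (standard error, SE, 0.0885, adjusted p = 0.00261 from limma). *mt-Atp6*, the proton channel subunit, had 124142, 121587 and 125489 at P1 and 96028, 98576 and 84683 at P4, again without overlap, and differed by 0.41 on the log2 scale (SE 0.0851, adjusted p = 0.00752, limma). How reads within the 43 bases they share were assigned is not given in the sources that were used, so the values may not be independent.

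Of the complex IV core, *mt-Co1* holds the haem and copper site that reduces oxygen. It had 120633, 110854 and 123576 normalized counts in P1 untreated and 94009, 100405 and 86702 in P4 untreated libraries. All 3 P1 values were above the P4 values, with a log2 fold change of 0.34 (SE 0.0905, adjusted p = 0.0247, limma). The other 2, *mt-Co2* with 0.18 (adjusted p = 0.116, limma) and *mt-Co3* with 0.28 (adjusted p = 0.0720, limma), were not called, although their groups did not overlap either. *mt-Cytb*, the mitochondrial subunit of complex III, was not called at 0.25 (adjusted p = 0.0619, limma).

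None of the 6 mitochondrial genes of complex I was called. *mt-Nd1*, a membrane subunit near the quinone site, had 48954, 46289 and 49723 normalized counts at P1 and 40417, 40776 and 37634 at P4. These do not overlap, and its log2 fold change of 0.29 (adjusted p = 0.0231, limma) passed the test but not the limit on the fold. The other 5 had log2 fold changes of -0.05 to 0.13, from *mt-Nd3* to *mt-Nd4*. *mt-Nd2* had 13433, 12679 and 12628 at P1 and 12470, 14022 and 11532 at P4, *mt-Nd5* 27674, 23821 and 26992 against 25662, 26268 and 24841, and their groups overlap. *mt-Nd6*, the only mitochondrial member on the minus strand, had 6915, 6116 and 7468 against 7140, 6784 and 5375. The 7 genes from *mt-Nd1* and complexes III to V had log2 fold changes of 0.18 to 0.53.

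**Figure D2:**
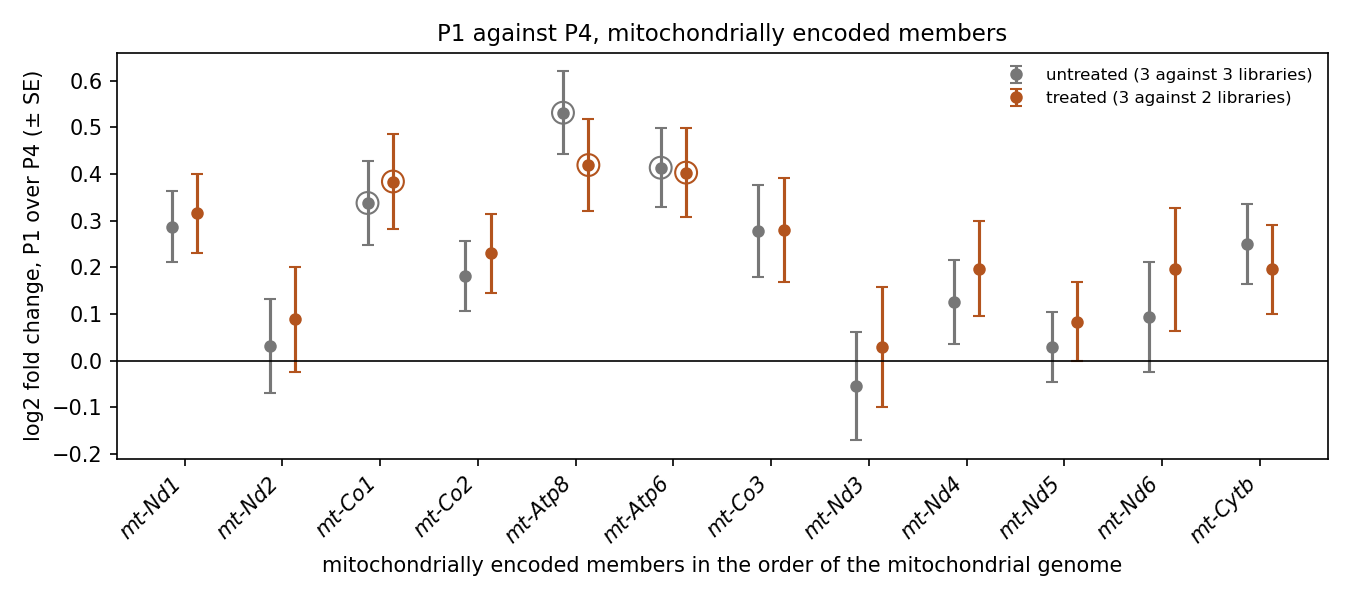
Log2 fold change of P1 over P4 for the 12 mitochondrially encoded members in genome order, in untreated (grey) and treated (brown) libraries, with the standard error as whiskers and a ring around called genes. In both, *mt-Atp8*, *mt-Atp6* and *mt-Co1* are ringed, while *mt-Nd2*, *mt-Nd3*, *mt-Nd5* and *mt-Nd6* lie between -0.05 and 0.20.

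Divided by gene length, the mitochondrial members fell into a higher and a lower set. *mt-Co3* and *mt-Atp6* stood highest, with means of 197312 and 182109 normalized counts per kb over the 6 P1 libraries and 162440 and 137219 over the 5 P4 libraries. *mt-Co2* (79398), *mt-Co1* (76204), *mt-Cytb* (69965), *mt-Atp8* (66605) and *mt-Nd1* (51237) followed at P1. Last came *mt-Nd4* (21138), *mt-Nd3* (16729), *mt-Nd5* (14206), *mt-Nd6* (12979) and *mt-Nd2* (12365), again as means per kb over the P1 libraries. Over all libraries these 5 complex I genes had 10356 to 22383 normalized counts per kb and the other 7 had 39325 to 210992. The 5 are those with the smallest log2 fold changes between the untreated ages, and over the 12 genes Spearman's rho of the level per kb and that fold change was 0.70. The genes share libraries and long precursor transcripts, so this is a description of them.

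In the nuclear members the balance was the other way. Of 78, 9 were called lower at P1 and 1 was called higher, where 9.38% and 10.5% of all genes tested were, so the share called lower was near that of all genes. The median log2 fold change was -0.15, against 0.02 for all genes, and 67 of the 78 were below 0. P1 and P4 untreated libraries of the same replicate number were correlated in their residuals, and with the number as a block 5 were called lower and 1 higher. With log2 *Xist* as a covariate 2 were called, *Uqcrc2* and *Uqcrq*, both lower, and 1 mitochondrial gene, *mt-Atp8*. Within groups, *Xist* differed widely only in P1 untreated libraries, with 16 in replicate 1 against 3030 and 2794 in replicates 2 and 3. The covariate therefore rests mostly on that 1 library and cannot separate sex from age or treatment. Among the libraries with low *Xist*, the mean log2 of the nuclear members was 11.90 to 12.27 at P1 and 12.22 to 12.36 at P4. These were treated and untreated together at P1 and all untreated at P4. Among those with high *Xist* it was 12.10 to 12.18 at P1, both untreated, and 12.03 to 12.10 at P4, both treated. It was not lower at P1 in the latter, where age and treatment cannot be told apart.

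Complex III held 3 of the called genes. *Uqcrc2*, a core protein of the complex (chromosome 7, 120635176 to 120659524, plus strand), had 6247, 6812 and 6632 normalized counts in P1 untreated and 9666, 10095 and 9593 in P4 untreated libraries. Its log2 fold change was -0.58 (SE 0.0950, adjusted p = 0.00250, limma). *Uqcrq*, a small subunit next to cytochrome b, had 4882, 5312 and 5238 against 7376, 7805 and 7523, a log2 fold change of -0.56 (SE 0.105, adjusted p = 0.00491, limma). In both, every P1 value lay well under the lowest P4 value. *Uqcr11* had 5437, 6036 and 5970 against 7212, 7949 and 7066 and a log2 fold change of -0.35 (adjusted p = 0.0481, limma, and 0.0733 with the replicate block, where it was not called). The iron-sulphur protein *Uqcrfs1* (-0.18, adjusted p = 0.118) and cytochrome c1, *Cyc1* (-0.19, adjusted p = 0.102), were not called.

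In complex IV, *Cox5a* and *Cox5b*, nuclear subunits that sit around the catalytic core, were called lower at P1. *Cox5a* had 5359, 5279 and 5837 normalized counts at P1 and 8089, 8514 and 7797 at P4, without overlap, and a log2 fold change of -0.57 (SE 0.134, adjusted p = 0.0142, limma). *Cox5b* had 3504, 3482 and 3250 against 4069, 5108 and 4167, a log2 fold change of -0.38 (adjusted p = 0.0363, limma, and 0.0700 with the replicate block, where it was not called). *Cox6b2*, the form of subunit 6b known from testis, was the 1 nuclear member called higher, with 223, 242 and 256 at P1 against 138, 166 and 145 at P4 and a log2 fold change of 0.68 (SE 0.181, adjusted p = 0.0236, limma). Over all libraries it ran from 115 to 256. The common form *Cox6b1* had 8389, 8307 and 9184 against 8213, 9567 and 8824.

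Complex I had 3 called genes among its 36 nuclear members, all lower at P1. *Ndufa12*, an accessory subunit, had 1629, 1553 and 1582 normalized counts at P1 and 4042, 3031 and 2738 at P4, a log2 fold change of -1.02 (SE 0.263, adjusted p = 0.0206, limma), the lowest of the nuclear members. *Ndufs8*, which carries iron-sulphur clusters, had 3827, 4296 and 4419 against 5126, 5732 and 5442, with a log2 fold change of -0.38 (adjusted p = 0.0389, limma). *Ndufa1*, 1 of 3 members on the X chromosome, had 4843, 4439 and 4918 against 5850, 6645 and 5857, with -0.37 (adjusted p = 0.0388, limma). In each of the 3 the groups did not overlap. With the replicate block *Ndufs8* (adjusted p = 0.0575, limma) and *Ndufa1* (adjusted p = 0.0553, limma) were no longer called. The other X-linked members, *Ndufb11* (-0.04, adjusted p = 0.825) and *Cox7b* (-0.19, adjusted p = 0.216), were not called.

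Complex V held 1 called gene of 17 and complex II none of 4. *Atp5f1*, which encodes subunit b of the stalk that holds the ATP synthase in place, had 9158, 9022 and 9568 normalized counts at P1 and 11518, 12865 and 11981 at P4, and its log2 fold change was -0.39 (SE 0.0995, adjusted p = 0.0200, limma). The catalytic subunits *Atp5a1* (-0.03, adjusted p = 0.780) and *Atp5b* (-0.23, adjusted p = 0.0731) were not called. The 4 succinate dehydrogenase genes lay within -0.08 and -0.06 on the log2 scale, with the smallest adjusted p at 0.463. Calls depended on single libraries: without P1 untreated replicate 1, 2 or 3 the nuclear members called numbered 4, 3 and 4, without P4 untreated replicate 1 or 3 they numbered 5 and 4, and without P4 treated replicate 1, which enters the shared spread, 6.

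**Figure D3:**
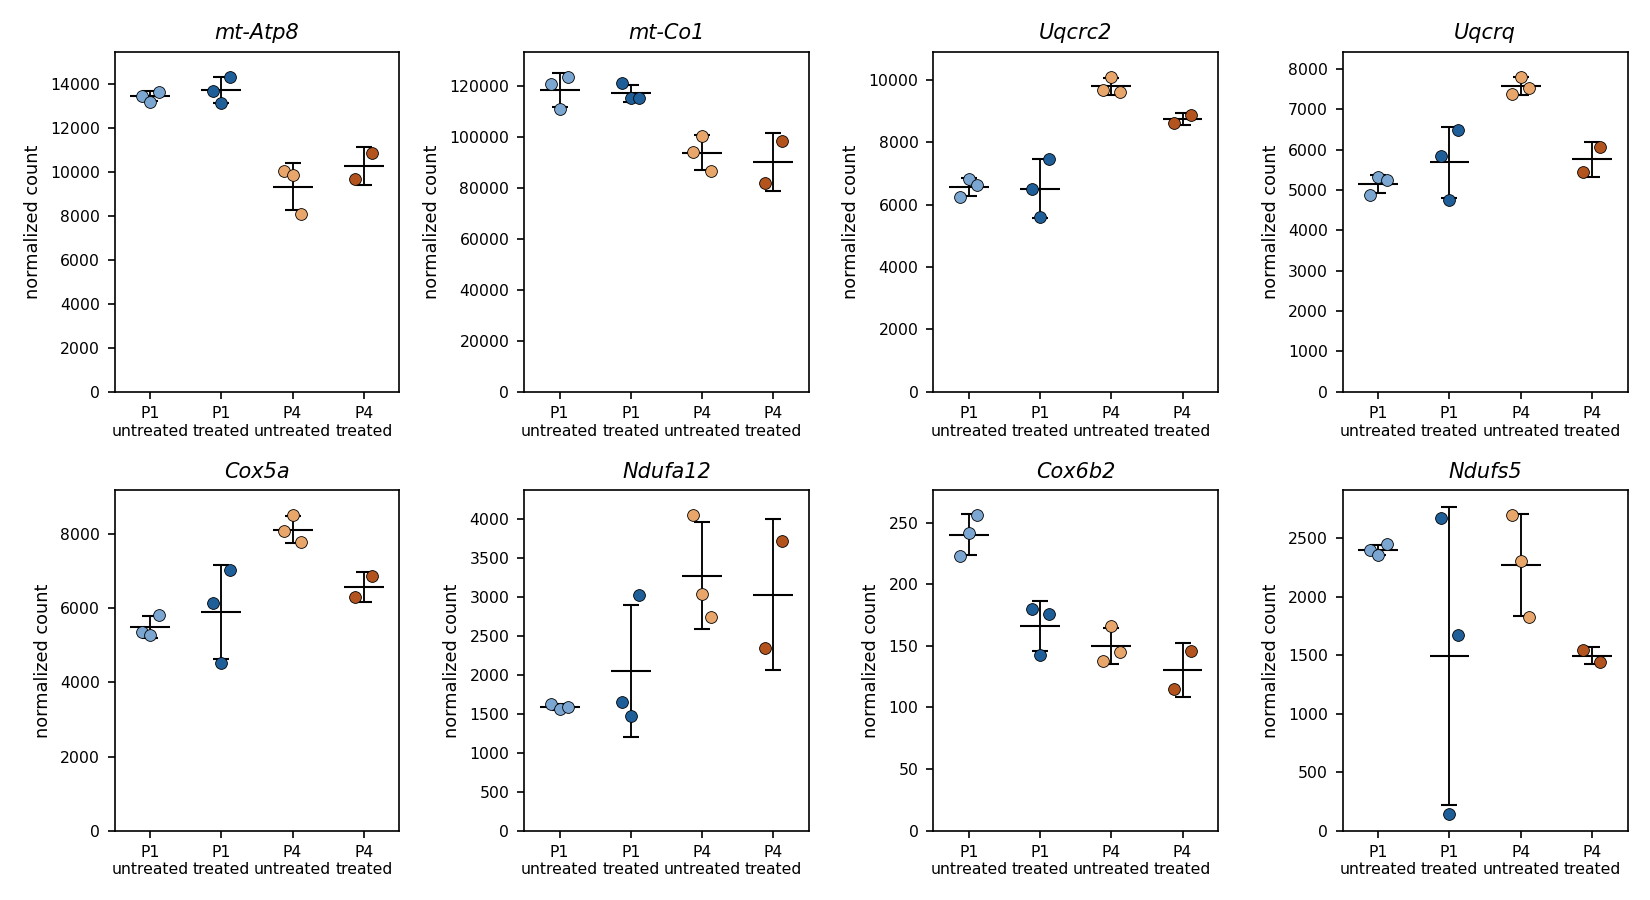
Normalized counts of 8 members by group. Each point is a library, the bar the group mean and the whisker 1 SD, and each axis starts at 0. *mt-Atp8* and *mt-Co1* lie higher in all 6 P1 than in all 5 P4 libraries and *Uqcrc2* lower, while *Ndufs5* has 1 library at 140.

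The same comparison between treated libraries had 3 at P1 and 2 at P4. All 3 P1 treated libraries had low *Xist* (13 to 26) and both P4 treated ones high *Xist* (3268 and 4180), so age and sex cannot be told apart in this comparison. The mitochondrial members *mt-Atp8* (log2 fold change 0.42, adjusted p = 0.0245), *mt-Atp6* (0.40, adjusted p = 0.0245) and *mt-Co1* (0.38, adjusted p = 0.0362) were called higher at P1, where 5.63% of all genes tested were. The mitochondrial median was 0.21, against 0.00 for all genes, and all 12 were above 0. *mt-Atp8* had 13708, 13136 and 14344 normalized counts in P1 treated and 9676 and 10880 in P4 treated libraries, and *mt-Co1* 120959, 115351 and 115042 against 81942 and 98252. Neither overlapped. The comparisons of treated and of untreated libraries share no samples but share 1 estimate of the spread.

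Of the nuclear members, 1 was called higher at P1 and 1 lower in treated libraries, where 5.63% and 5.42% of all genes tested were. The one lower was *Uqcrc2*, with 6492, 5586 and 7458 normalized counts at P1 and 8597 and 8876 at P4, without overlap and with a log2 fold change of -0.43 (SE 0.106, adjusted p = 0.0279, limma). The one higher was *Cox7a2l*, which encodes a factor that joins complexes III and IV into supercomplexes, with 4823, 4215 and 4636 against 3497 and 3549 and a log2 fold change of 0.37 (SE 0.0988, adjusted p = 0.0385, limma). Between untreated libraries *Cox7a2l* differed by 0.28 (adjusted p = 0.0483, limma), under the limit on the fold. The nuclear median was 0.08, with 55 of the 78 above 0, but it was 0.01 without P1 treated replicate 3 and 0.19 without P1 treated replicate 2. With log2 *Xist* as a covariate it was 0.18, which does not separate age from sex here. These calls also depended on single libraries, since without P1 treated replicate 1 or either P4 treated library 0 nuclear members were called, without P1 treated replicate 2, 7, and without any 1 of the P1 untreated libraries or P4 untreated replicate 3, 1. For the mitochondrial members the count was 0 without P1 treated replicate 1 or 3 or either P4 treated library, 0 with log2 *Xist* as a covariate or with only the groups compared, and 1 with quantile scaling or without the trend of the spread.

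Over all 11 libraries, 5 of the 12 mitochondrial members (*mt-Nd1*, *mt-Co1*, *mt-Co2*, *mt-Atp6* and *mt-Atp8*) lay higher in every P1 than in every P4 library, against 8.48% of all genes tested, and 0 lower. Of the 78 nuclear members 0 lay higher and 1, *Uqcrc2*, lay lower in every P1 library, against 8.42% of all genes tested.

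**Figure D4:**
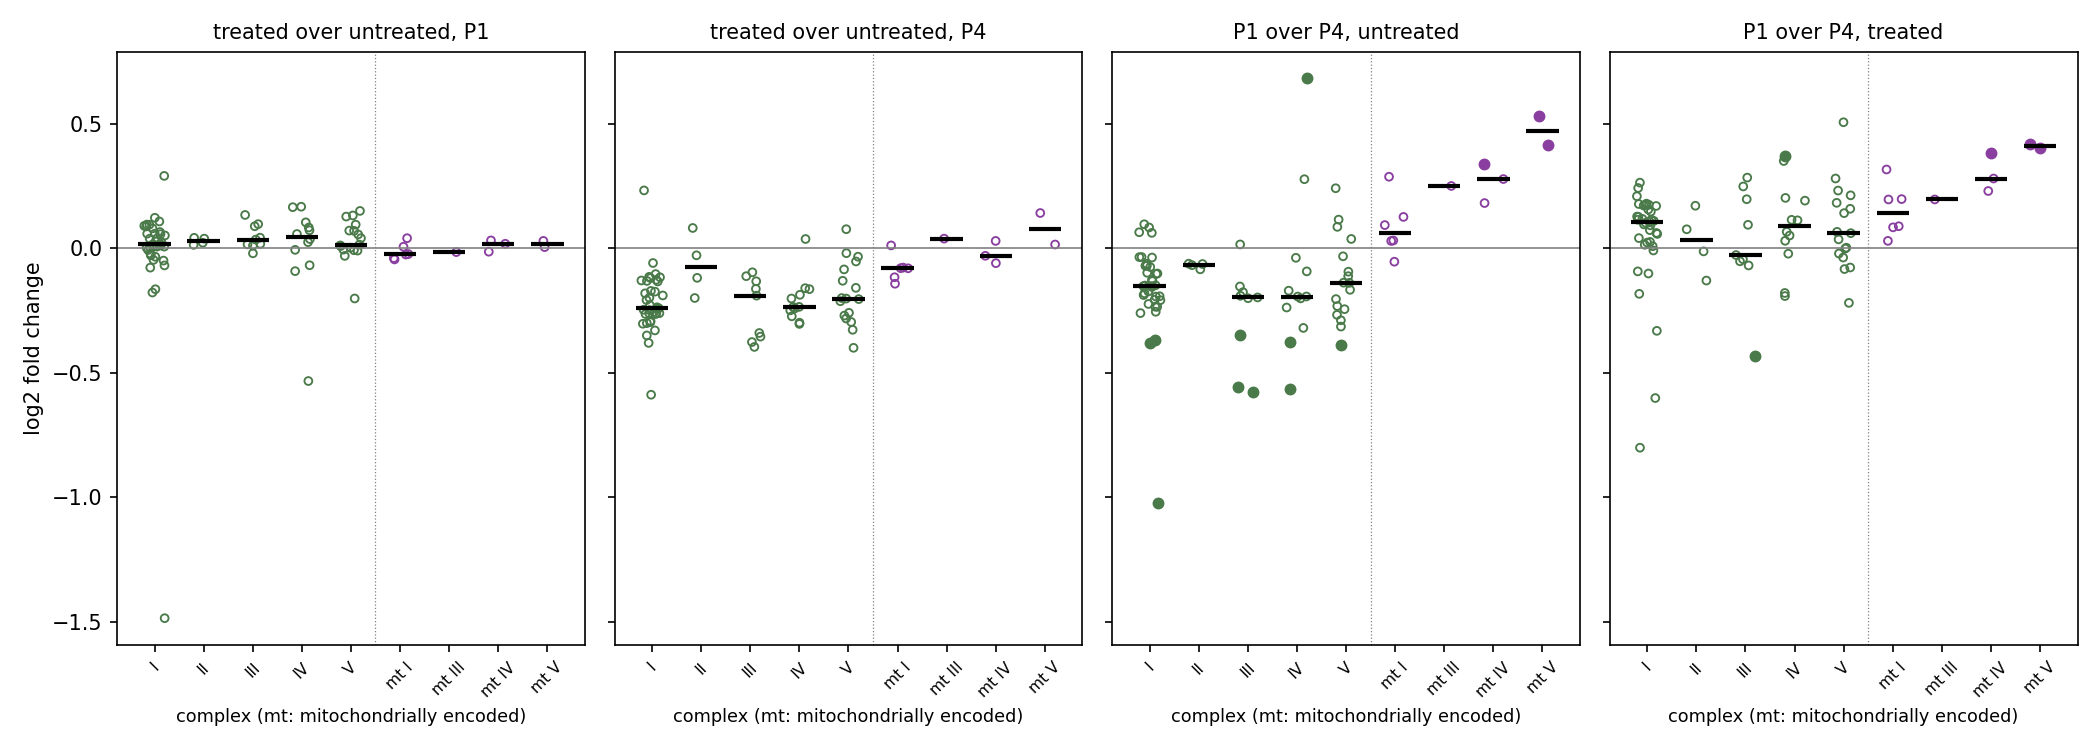
Log2 fold change of each member in 4 comparisons, by complex, with nuclear members in green and mitochondrially encoded members in purple. Filled points are called genes and bars are medians: the nuclear medians lie near 0 for treatment at P1 and at -0.24 to -0.07 at P4, and the mitochondrial ones lie above 0 in both comparisons of age.

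Treatment was compared with no treatment at each age, the question the groups were made for. At P1, 0 of the 90 members were called by limma, where 0.353% of all genes tested were, and the smallest adjusted p was 0.267. At an unadjusted p under 0.05, 1 nuclear member was lower in treated libraries, where 6.99% of all genes tested were, and 0 higher, and 0 mitochondrial members passed. The nuclear median log2 fold change was 0.02 and the mitochondrial -0.00, against 0.00 for all genes. With log2 *Xist* as a covariate, which rests mostly on P1 untreated replicate 1, they were 0.09 and -0.02. At P1 high *Xist* was found only in untreated replicates 2 and 3, so sex was not balanced between treated and untreated libraries. The nuclear member that passed was *Cox6b2*, with 180, 143 and 176 normalized counts in P1 treated against 223, 242 and 256 in P1 untreated libraries. These do not overlap, and the log2 fold change was -0.53 (SE 0.181, adjusted p = 0.267, limma). Of the 18400 genes tested, 1532 were lower and 1278 higher in P1 treated libraries without overlap.

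*Ndufs5*, an accessory subunit of complex I, had the lowest log2 fold change at P1, -1.49 with a standard error of 0.827 (adjusted p = 0.531, limma). It had 2668, 140 and 1672 normalized counts in P1 treated and 2395, 2360 and 2446 in P1 untreated libraries. The value of 140 in P1 treated replicate 2 stood alone, since the other 10 libraries ran from 1442 to 2694, and the other 2 P1 treated libraries lay on either side of the untreated ones. *Ndufa12* had 1646, 1471 and 3025 in P1 treated libraries, of which the last lay within the range of P4. Without P1 treated replicate 2 the nuclear median at P1 was 0.12 and the mitochondrial 0.06. Without replicate 3 both were -0.04.

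At P4, 0 members were called by limma, where 0.0543% of all genes tested were, with the smallest adjusted p at 0.285. At an unadjusted p under 0.05, 26 nuclear members were lower in treated libraries, where 5.38% of all genes tested were, and 1 was higher, where 6.26% were. The nuclear median was -0.21, against 0.00 for all genes, with 74 of the 78 below 0, and 58 of the 78 lay lower in both treated than in all 3 untreated libraries, where 16.9% of all genes tested did. Of the mitochondrial members 0 passed an unadjusted p under 0.05, and their median was -0.05. This median had no stable sign, since it was 0.05 without P4 treated replicate 1, 0.01 without P4 untreated replicate 2, -0.11 without P4 treated replicate 3, -0.09 without P4 untreated replicate 3 and -0.03 without P4 untreated replicate 1. The mean log2 of the nuclear members was 12.03 and 12.10 in P4 treated and 12.22, 12.36 and 12.23 in P4 untreated libraries. Without P4 untreated replicate 2, the highest, the nuclear median was -0.17, with 71 of 78 below 0, and in the other fits that left out 1 library it was -0.26 to -0.18.

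Small unadjusted p-values at P4 were found in several complexes. *Uqcrq* had 5454 and 6057 normalized counts in treated and 7376, 7805 and 7523 in untreated libraries, with a log2 fold change of -0.40 (SE 0.118, adjusted p = 0.285, limma). *Uqcr10* had 4046 and 4208 against 5005, 5830 and 5273 (-0.38, adjusted p = 0.285, limma), *Ndufb7* 3335 and 3403 against 4222, 4452 and 4216 (-0.35, adjusted p = 0.285, limma). *Atp5e*, the epsilon subunit of the ATP synthase, had 5462 and 5168 against 7322, 7249 and 6493 (-0.40, adjusted p = 0.294, limma). In all 4 the groups did not overlap, and none passed the adjusted threshold. *Ndufs1*, the largest subunit of complex I, had the highest log2 fold change of the members, with 5739 and 6136 against 5228, 4821 and 5115 (0.23, adjusted p = 0.429, limma). By complex, the medians were -0.24 in complex I, -0.07 in complex II, -0.19 in complex III, -0.24 in complex IV and -0.20 in complex V.

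The interaction asks whether the effect of treatment differed between the ages. High *Xist* was found only in treated libraries at P4 and only in untreated libraries at P1. Such a difference therefore cannot be told apart from sex here. The interaction was called by limma for 0 of the 90 members, as for 0% of all genes tested, with the smallest adjusted p of a member at 0.820. At an unadjusted p under 0.05 it was positive for 14 nuclear members, where 2.72% of all genes tested were, and negative for 0, and 0 mitochondrial members passed. The nuclear median was 0.22, with 73 of 78 above 0, the mitochondrial 0.05. With log2 *Xist* as a covariate, which rests mostly on P1 untreated replicate 1, they were 0.36 and -0.03. Without 1 library at a time they were 0.16 to 0.33 and -0.04 to 0.12. The highest nuclear value was without P1 treated replicate 2, and the mitochondrial ends were without P4 treated replicate 1 and replicate 3. The highest was *Uqcrq*, at 0.53 (SE 0.158, adjusted p = 0.820, limma).

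The subunits with tissue isoforms were followed one by one, in normalized counts that are not divided by gene length. Subunit 6a was the common *Cox6a1*, with 9010 to 13148 normalized counts in all libraries, while the heart and muscle form *Cox6a2* had 0 to 3. Subunit 7a had *Cox7a2* at 4853 to 6837 and the heart and muscle form *Cox7a1* at 164 to 327, and subunit 8 had *Cox8a* at 11636 to 15555 with *Cox8b* at 1 to 12 and *Cox8c* at 0 to 4. *Cox7b2* had 9 to 22 at P1 and 0 to 9 at P4. The 3 genes that encode the same ring subunit c of the ATP synthase were at 10958 to 14578 for *Atp5g3*, 4274 to 5880 for *Atp5g1* and 566 to 699 for *Atp5g2*, and their log2 fold changes between the untreated ages were -0.14, 0.09 and 0.04 (adjusted p = 0.309, 0.591 and 0.849, limma). *Atp5l*, whose pseudogenes can share its reads, had 520 to 974, and its pseudogene *Atp5l-ps1* had 22 to 43.

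The other genes of the pathway are given by the calls between the untreated ages, higher and lower at P1, from limma. Of all genes tested, 10.5% were called higher and 9.38% lower. Counts near these shares do not set a list apart from all genes. Regulators of mitochondrial biogenesis had 1 higher and 3 lower of 18, with a median log2 fold change of -0.10. *Esrra*, an orphan nuclear receptor that acts on genes of the chain, had 890, 855 and 888 normalized counts at P1 against 1171, 1197 and 1183 at P4 (-0.43, adjusted p = 0.00921), *Ppard* differed by -0.84 (adjusted p = 0.0151) and the general factor *Sp1* by 0.68 (adjusted p = 0.0164). The machinery that replicates, transcribes, processes and translates mitochondrial RNA had 7 higher and 2 lower of 38, with a median of 0.07. Among these, *Mtpap*, the mitochondrial poly(A) polymerase (0.45, adjusted p = 0.00303), and *Trmt10c*, a subunit of the enzyme that cuts tRNAs from mitochondrial transcripts (0.54, adjusted p = 0.00890), were higher, and *Rexo2*, an exonuclease that removes short RNAs, was lower (-1.01, adjusted p = 0.00246).

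Assembly factors of the complexes had 3 higher and 5 lower of 48, with a median of -0.01. *Ttc19*, which acts on complex III, had 1321, 1512 and 1418 normalized counts at P1 against 2772, 2663 and 2588 at P4 (-0.92, adjusted p = 3.40e-04), *Cox19*, a copper handling factor of complex IV, differed by -0.79 (adjusted p = 3.99e-04), and *Timmdc1*, which acts on complex I, had 240, 230 and 185 against 1895, 2073 and 1999 (-3.19, adjusted p = 0.00174). In P1 treated libraries *Timmdc1* had 1012, 221 and 1152. *Timmdc1*, *Ndufa12* and *Ndufs5* differed widely between libraries of 1 group, and whether the assignment of reads to transcripts or annotation adds to their fold changes was not tested. Subunits that the name rule does not take, such as *Cox4i1*, had 0 higher and 1 lower of 8, namely *Higd1a* (-0.45, adjusted p = 0.0231).

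Around the chain, the citric acid cycle had 2 higher and 2 lower of 19 (*Suclg2* 0.71, adjusted p = 0.00118, *Idh2* 0.45, adjusted p = 0.00333, and *Dlat* -0.45, adjusted p = 8.68e-04) and glycolysis 0 higher and 3 lower of 21. The latter were the lactate carrier *Slc16a3* (-1.54, adjusted p = 5.06e-04), *Hk1* (-0.49, adjusted p = 0.00662) and *Pfkp* (-1.15, adjusted p = 0.0451). Mitochondrial carriers and import had 2 higher (*Tomm20* 0.38 and *Slc25a5* 0.33) and 1 lower (*Slc25a4* -0.33) of 19, so that the adenine nucleotide carriers *Slc25a4* and *Slc25a5* were called in opposite directions. Antioxidant genes had 1 higher (*Nfe2l2* 0.55) and 1 lower (*Gpx4* -0.51) of 15. Of the other RNAs of the mitochondrial genome, 10 of 24 were tested, with 0 higher and 2 lower: the tRNA of leucine *mt-Tl1* had 18, 22 and 13 against 40, 41 and 41 and the tRNA of cysteine *mt-Tc* 19, 19 and 25 against 62, 50 and 37. With the replicate block *Nfe2l2* (adjusted p = 0.0586, limma), *mt-Tl1* (adjusted p = 0.0528, limma) and *mt-Tc* (adjusted p = 0.0719, limma) were no longer called. Treatment gave 0 calls in these 9 lists at either age, where 0.353% of all genes tested were called at P1 and 0.0543% at P4.

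Markers of the cell types that the tissue can hold were also called between the untreated ages, and their part in the values of the members was not tested. The shares of all genes tested were again 10.5% called higher and 9.38% called lower. Hair cell markers had 1 higher and 6 lower of 16, with a mean log2 of 10.30 to 10.92 in P1 untreated and 11.33 to 11.53 in P4 untreated libraries. Supporting cell markers had 2 higher and 6 lower of 16, at 12.65 to 12.82 and 12.83 to 12.96, mesenchyme markers 2 and 2 of 12, at 11.71 to 12.04 and 11.41 to 11.59, and neuron and glia markers 0 and 2 of 13, at 8.92 to 10.155 and 9.28 to 10.51. Stria markers had 1 and 2 of 10, striated muscle markers 1 and 1 of 11, and immune (11) and erythroid (6) markers 0. Immediate early genes, which respond to handling of cells, had 12 higher and 0 lower of 15, with a median log2 fold change of 2.20 and a mean log2 of 11.49 to 12.26 in P1 untreated against 9.85 to 10.225 in P4 untreated libraries.

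Marker lists also differed with treatment, beside the values of the nuclear members, and their part in these was not tested. At P4 none of the marker lists held a called gene, where 0.0543% of all genes tested were called. Mesenchyme markers had a mean log2 of 10.415 to 10.997 in P4 treated against 11.41 to 11.59 in P4 untreated libraries, with a median log2 fold change of -0.77. Neuron and glia markers were at 9.22 to 9.23 against 9.28 to 10.51 (median -0.50) and stria markers at 6.46 to 6.88 against 6.89 to 8.03 (median -0.83), while supporting cell markers were at 13.01 to 13.095 against 12.83 to 12.96 (median 0.20). In these 4 lists the P4 groups did not overlap. Hair cell markers were at 11.18 to 11.39 against 11.33 to 11.53 and immune markers at 7.56 to 8.24 against 7.845 to 8.58, which overlap. At P1, 0.353% of all genes tested were called. Immune markers there were at 6.71 to 7.997 in treated against 8.07 to 8.545 in untreated libraries, with a median of -1.16 and 0 of 11 called. Mesenchyme markers were at 10.47 to 12.015 against 11.71 to 12.04, which overlap. Their median was -0.76, although 1 of 12 was called higher and 0 lower. Supporting cell markers were at 12.70 to 12.95 against 12.65 to 12.82 (median 0.15), which overlap too, with 2 called higher and 1 lower of 16. The one lower was *Sox2* (log2 fold change -0.67, adjusted p = 0.0300, limma), which the Cre allele itself lowers. The paper reports *Jag1*, also in this list, as increased by treatment at both ages. The list therefore does not report on cell content alone. Striated muscle markers had 1 called higher and 0 lower of 11.

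Promoters of the nuclear members, taken from RefSeq (GRCm38.p6) as 250 bases before to 50 after the gene's start, were searched on both strands for 4 motifs of factors known to act on genes of the chain. Of the 78, 67 were matched in the table. The NRF1 motif GCGCATGCG was found in 8 of the 67 (11.9%) against 1.75% of all 32851 promoters, the ETS motif CCGGAAG of GABP in 15 (22.4%) against 8.86%, the YY1 motif AAGATGGCG in 7 (10.4%) against 1.4%, and the ERR motif TCAAGGTCA in 2 (2.99%) against 0.423%. At least 1 of the 4 was in 27 (40.3%), against 11.7% of all promoters. The NRF1 motif is nearly its own reverse complement, so 1 stretch can match on both strands, and matches of different motifs did not overlap in these promoters. All 7 matches of YY1 were on the gene's own strand, 23 to 36 bases after the start, in *Ndufa9*, *Ndufc1*, *Ndufs4*, *Ndufs6*, *Ndufs7*, *Atp5j2* and *Atp5sl*.

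Of the 9 nuclear members called lower at P1 in untreated libraries, 7 had a promoter in the table. The 2 of these with a match are shown, on the gene's strand, with the matches in capitals. *Uqcr11* (chr10:80406772-80407071, minus strand) held the NRF1 and the ETS motif, and *Ndufs8* (chr19:3912725-3913024, minus strand) the ETS motif in reverse.
Uqcr11: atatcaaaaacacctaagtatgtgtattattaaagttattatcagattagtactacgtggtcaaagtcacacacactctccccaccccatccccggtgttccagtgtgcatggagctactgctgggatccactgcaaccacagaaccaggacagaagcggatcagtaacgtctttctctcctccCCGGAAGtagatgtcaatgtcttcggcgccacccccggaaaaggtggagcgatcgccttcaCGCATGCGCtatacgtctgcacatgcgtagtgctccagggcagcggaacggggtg
Ndufs8: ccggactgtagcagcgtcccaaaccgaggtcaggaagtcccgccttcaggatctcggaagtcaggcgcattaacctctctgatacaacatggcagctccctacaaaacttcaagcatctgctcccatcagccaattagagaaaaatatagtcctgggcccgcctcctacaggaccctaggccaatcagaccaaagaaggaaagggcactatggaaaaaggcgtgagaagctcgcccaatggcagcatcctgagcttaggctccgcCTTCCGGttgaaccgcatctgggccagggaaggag
The share with the ETS motif was 28.6% of these 7 (2 promoters) and 21.7% of the other 60. With the NRF1 motif it was 14.3% (1 promoter) and 11.7%. The YY1 and ERR motifs went the other way, with 0% of the 7 against 11.7% and 3.33% of the other 60. With so few promoters these shares do not set the called genes apart. *Cox5a*, *Cox5b*, *Atp5f1*, *Ndufa1* and *Ndufa12* held none of the 4 in this window, and *Uqcrc2* and *Uqcrq* were not in the table. A match is a run of letters, and binding was not measured.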

How the data were processed

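RNA of 11 libraries was analysed, from a table the authors deposited of a score per gene, which are counts scaled between libraries and given without decimals. The authors aligned single-end reads with STAR 2.5.2b to mm10, used featureCounts for quality control, and quantified transcripts with Sailfish and tximport for DESeq2. The sources used here do not say which of these counts were deposited, so methods for raw counts were not used. Of 27755 entries, 1 was dropped for repeating an ID and 626 carried no symbol. Normalized counts added up to 41.2 to 44.2 M per library, which after scaling does not give the depth of sequencing. Each library is a different pup. No 2 libraries were identical.

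Values were compared as log2(normalized count + 1), so that fold changes of low genes are understated, in R 4.3.3 with limma 3.58.1 (a mean per group over all 11 libraries, eBayes with trend), for 18400 genes with a mean of at least 10. P-values were adjusted by Benjamini and Hochberg over all genes tested. The comparisons were treatment at each age, age in untreated and in treated libraries, and their interaction. The code was tested on simulated data.

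Replicate numbers were checked by the correlation of residuals of same-numbered libraries, which was 0.135, 0.136 and 0.115 between the untreated ages and -0.061 to 0.026 in the other comparisons. The numbers were therefore read as possible pairs between the untreated ages only. The main fit, which gave the calls and p-values of the text unless the block is named, held no replicate block. The block was run as an alternative.

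Members, gene lists and tests were chosen with earlier results of these data known. The genes named were the mitochondrial members, up to 4 called nuclear members per complex and comparison or the one with the smallest p, subunits with isoforms, the extremes of each comparison and up to 3 called genes of each list; others were named after their values were seen. Positions are from GENCODE M21 on GRCm38. Alternatives were another pseudocount, no or a higher minimum, 3 scalings, no trend, only the groups compared, the replicate block, log2 *Xist*, other thresholds and leaving out each library in turn.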

Additional observations from a re-analysis of the deposited data

How the results depend on the processing

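Between the untreated ages, 10 nuclear members were called, 6 without the trend of the spread, 6 with the replicate block, 2 with log2 *Xist* as a covariate and 3 to 10 when 1 library was left out. For the 3 mitochondrial members these fits gave 3, 3, 1 and 2 to 4. Between the treated ages, the 2 nuclear calls became 1 with no minimum mean, 0 without the trend, with only the groups compared, with the replicate block or with log2 *Xist*, 4 at an adjusted p under 0.1, and 0 to 7 when 1 library was left out. The 3 mitochondrial calls became 1 with quantile scaling or without the trend, 0 with only the groups compared, the block or *Xist*, and 0 to 4 when 1 library was left out. Treatment and the interaction gave 0 calls among the members in every fit run. Scaling moved the median of all genes by less than 0.1 on the log2 scale. Between the untreated ages, the calls of the members *Cox5b*, *Ndufa1*, *Ndufs8* and *Uqcr11* were lost with the replicate block. Of the other genes named, those of *Nfe2l2*, *mt-Tc* and *mt-Tl1* were lost too. The block also changed the calls of the treated ages, where the libraries share only a number. The difference of mitochondrial and nuclear level was 0.362 between the untreated and 0.182 between the treated ages and kept its sign in each fit, those with another pseudocount or without 1 library having been added after the data were seen. With 2 or 3 pups a group, the standard errors of the members, with medians of about 0.1 on the log2 scale, limit what could be called.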
